A study of Mus musculus with 6 samples.

Results

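The genes of mouse chromosome 4 that surround Mir31 were Focad, Hacd4, Klhl9, Mtap, Cdkn2a, Cdkn2b, Dmrta1 and Elavl2, listed in the order of the annotation. They were chosen by name and position, and every non-control probe that mapped to 1 of the 8 RefSeq symbols was kept, which gave 13 of the 56605 non-control probes of the array and 8 of its 23462 genes with a symbol. RNA of colonic epithelium was compared between 3 male miR-31 knockout mice and 3 male wild-type mice, with 1 one-colour Agilent array for each mouse. The epithelium was separated by flow and collected in TRIzol, and cDNA labelled with Cy3 was made after linear RNA amplification. The gate of the separation, the strain and age of the mice, the extent of the deletion and whether it covers the whole body or some cells are not given in the sources used here. The labels name separate mice and nothing that links a knockout mouse to a wild-type mouse.

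miR-31 is a small RNA that is cut from a hairpin precursor and pairs through its seed with messenger RNAs, whose translation or stability it lowers. Its gene lies beside a cluster of type I interferon genes and the Ink4/Arf locus, which encodes inhibitors of cell division. In human tumours, deletions that remove CDKN2A and CDKN2B often also remove MTAP and can reach the gene for miR-31. The level of the neighbouring genes is therefore a question in an animal whose Mir31 was deleted, because an engineered deletion can also alter transcription nearby.

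The mature strands of the deleted gene are shown because they place the locus among its neighbours and show the seeds. They come from RefSeq on GRCm38.p6, on the minus strand of chromosome 4, with the seed (bases 2 to 8) in capitals. The 5p strand lies at chr4:88910614-88910635 and the 3p strand at chr4:88910577-88910599.
mmu-miR-31-5p: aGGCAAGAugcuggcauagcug
mmu-miR-31-3p: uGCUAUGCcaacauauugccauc
The strands carry different seeds, and among the 1679 mature mouse miRNAs of RefSeq 0 others had the seed of either strand. A probe for Mir31 was not among those used here, so the deletion itself was not checked on the arrays.

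The windows around the annotated starts of Hacd4, Cdkn2b and Cdkn2a are shown. Hacd4 and Cdkn2b were picked because each had 1 probe whose knockout and wild-type values did not overlap, as for 17.9% of all tested probes. That Cdkn2b probe was left out of the test because its spots were marked, and the other probe of each gene overlapped. Cdkn2a was picked because it gave no signal above background. Each window holds 300 bases, 250 before and 50 after the start, from RefSeq on GRCm38.p6, and all 4 lie on the minus strand. The capitals mark the GC box GGGCGG on either strand, a motif bound by Sp1-type factors that many promoters without a TATA box carry.
Hacd4, chr4:88438866-88439165: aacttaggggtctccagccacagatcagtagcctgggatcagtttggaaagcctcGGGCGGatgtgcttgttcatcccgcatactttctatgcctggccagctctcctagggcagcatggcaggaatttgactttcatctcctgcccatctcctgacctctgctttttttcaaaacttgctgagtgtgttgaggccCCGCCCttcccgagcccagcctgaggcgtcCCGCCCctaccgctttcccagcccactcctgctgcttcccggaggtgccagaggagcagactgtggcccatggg
Cdkn2b, chr4:89310983-89311282: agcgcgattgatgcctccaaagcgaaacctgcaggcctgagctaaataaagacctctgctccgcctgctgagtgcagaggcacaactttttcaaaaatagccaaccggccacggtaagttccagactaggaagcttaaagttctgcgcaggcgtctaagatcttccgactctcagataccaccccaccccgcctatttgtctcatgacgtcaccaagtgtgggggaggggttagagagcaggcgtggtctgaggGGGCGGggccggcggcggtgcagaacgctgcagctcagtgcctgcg
Cdkn2a, chr4:89282143-89282442: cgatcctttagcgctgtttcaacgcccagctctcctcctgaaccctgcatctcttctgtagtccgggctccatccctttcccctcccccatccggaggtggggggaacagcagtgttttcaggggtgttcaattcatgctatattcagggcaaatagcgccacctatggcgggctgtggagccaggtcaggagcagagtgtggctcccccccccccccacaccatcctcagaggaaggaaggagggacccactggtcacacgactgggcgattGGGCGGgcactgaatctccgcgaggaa
Cdkn2a, chr4:89294570-89294869: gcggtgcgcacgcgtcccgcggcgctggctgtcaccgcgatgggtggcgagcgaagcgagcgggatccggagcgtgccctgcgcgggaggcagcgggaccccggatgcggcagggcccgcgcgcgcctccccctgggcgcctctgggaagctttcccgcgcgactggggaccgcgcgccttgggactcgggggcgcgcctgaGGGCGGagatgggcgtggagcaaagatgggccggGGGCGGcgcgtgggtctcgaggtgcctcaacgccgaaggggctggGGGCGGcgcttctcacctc
The Hacd4 window held 3 GC boxes and 9 CpG dinucleotides, and the Cdkn2b window held 1 GC box and 18 CpG. The Cdkn2a windows held 1 and 3 GC boxes, with 12 and 45 CpG. The motif was found in 35.7% of the 32851 windows of the table, and the median window held 7 CpG. The motif TATAAA, searched on both strands, was in 13.6% of all windows and in 0 windows of the 8 genes.

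The level of a probe is given as its processed intensity in percent of the 75th percentile of its array. That percentile was 3539, 3122 and 3419 intensity units on knockout arrays 1 to 3 and 3005, 3104 and 3352 on wild-type arrays 1 to 3. Between 68.1% and 76.7% of spots were well above background on each array, and between 4.95% and 17.3% were marked as outliers by the extraction software. All 6 arrays shared 1 slide and 1 scan, and the knockout arrays filled row 1 of the slide and the wild-type arrays row 2. Slide row and genotype cannot be told apart. Epithelial markers fitted the labelled tissue: 14 of 14 were well above background on all 6 arrays, and their summed level ran from 16000% to 17700% in knockout arrays and from 16600% to 18900% in wild-type arrays. RNA of other cells was also measured, with 9 of 11 leukocyte markers (summed level 1970% to 2170% in knockout, 1780% to 2110% in wild-type) and 8 of 10 fibroblast and smooth muscle markers (1180% to 1800% in knockout, 1470% to 1670% in wild-type) well above background on every array. The same held for 3 of 6 endothelial markers (39.6% to 52.1% in knockout, 45.6% to 54.0% in wild-type). Of the markers of enteroendocrine cells, which belong to the epithelium itself, 7 of 8 were well above background on every array. Their summed level was 1550% to 2200% in knockout and 1170% to 1640% in wild-type. Of 10 listed markers of enteric neurons and glia, 6 were well above background on every array and 3 on 0 arrays. The neuronal markers Tubb3, Uchl1, Elavl3, Elavl4 and Snap25 were among those detected on every array. The endothelial markers Cdh5, Kdr and Tek were above background on 0 arrays. Each summed level was taken with marked spots kept and over all markers of its list, those not above background included. The 5 summed levels given overlapped between the groups, and the part of cell mixture in the results below was not tested. In bulk RNA, fewer cells of a type and less RNA per cell cannot be told apart.

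No neighbour gene passed the test between knockout and wild-type. Of the 13 probes, 6 probes of 5 genes (Focad, Hacd4, Klhl9, Mtap and Dmrta1) met the filter on signal and on marked spots. Another 3, the Cdkn2b pair and 1 Focad probe, were above background but left out because their spots were marked, and the 4 probes of Cdkn2a and Elavl2 were not well above background on any of the 6 arrays. With limma and Benjamini-Hochberg adjustment over all 33231 tested probes, 0 of the 6 probes had an adjusted p under 0.05, where 0.208% of all tested probes did (49 higher and 20 lower in knockout). At an unadjusted p under 0.05 stood 1 of the 6, against 10.5% of all tested probes. The knockout and wild-type values did not overlap for 1 of the 6, against 17.9% of all tested probes. The log2 change, knockout minus wild-type, was positive for 3 and negative for 3 of the 6, with a median of -0.17, beside -0.06 for all tested probes. With the marked spots kept, 9 probes of the neighbour genes were tested and 0 passed, while 73 of 41015 probes passed overall.

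**Figure D1:**
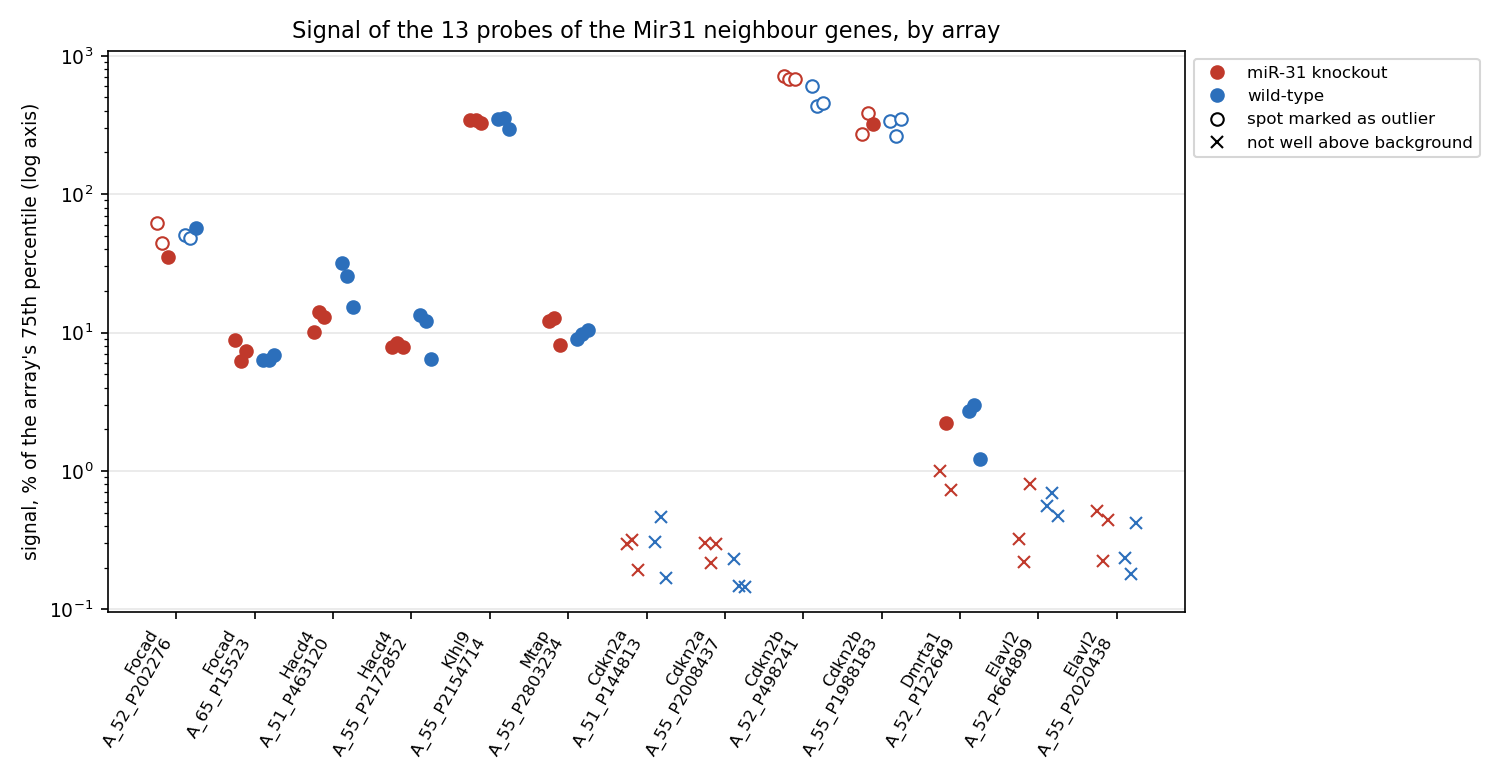
Processed intensity of the 13 probes in percent of the array's 75th percentile (log axis), 1 symbol for each array, knockout at left in red and wild-type at right in blue. Open circles are spots that the software marked, and crosses are spots not well above background. The first Hacd4 probe has its 3 knockout values (10.1 to 14.0) below its 3 wild-type values (15.2 to 31.8), and every spot of Cdkn2a and Elavl2 is a cross.

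Hacd4 had the smallest p among the neighbour genes tested. It encodes a member of the 3-hydroxyacyl-CoA dehydratase family, enzymes of the elongation of very long chain fatty acids in the endoplasmic reticulum. Probe A_51_P463120 gave 10.1%, 14.0% and 13% in knockout arrays 1 to 3 and 31.8%, 25.8% and 15.2% in wild-type arrays 1 to 3. All 3 knockout values lay below all 3 wild-type values, although wild-type array 3 came close to the knockout range. The log2 change was -0.92 ± 0.28 (SE, n = 3 and 3), with a 95% interval from -1.59 to -0.25 and adjusted p = 0.339 from limma. Its unadjusted p was 0.0138. Over the 19 alternatives it ran from -1.27 to -0.63, with an adjusted p from 0.110 to 0.732. The -0.63 is the mean of both Hacd4 probes, and the weakest value of this probe alone was -0.69, without wild-type array 1. Between arrays in the same slide column the difference was -1.66 in column 1 and -0.88 in column 2, and the other 2 arrays shared no column.

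The other Hacd4 probe, assigned to the same transcript, gave a smaller difference. A_55_P2172852 had 7.80%, 8.38% and 7.82% in knockout arrays and 13.4%, 12.1% and 6.47% in wild-type arrays. Here the lowest value of all was wild-type array 3, so the groups overlapped. The log2 change was -0.35 ± 0.27 (SE, n = 3 and 3; 95% interval -0.99 to 0.29), with adjusted p = 0.700 from limma. Without wild-type array 3 it was -0.67 with adjusted p = 0.141, and without wild-type array 1 it was -0.15 with adjusted p = 0.951. The changes of the 2 probes differed by -0.57 on the log2 scale, with an exact permutation p = 0.1 (two-sided), which is the smallest that 3 against 3 arrays allow. The probes therefore disagreed on size, and their difference was not resolved at this number of arrays.

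The Ink4/Arf locus comprises Cdkn2a and Cdkn2b. Cdkn2a encodes 2 unrelated proteins from separate first exons, p16Ink4a, which inhibits the kinases Cdk4 and Cdk6, and p19Arf, which restrains Mdm2 and so protects p53. Cdkn2b encodes p15Ink4b, a second inhibitor of the same kinases. On the arrays, Cdkn2a was not detected above background, whereas Cdkn2b was on every array.

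Cdkn2a was not well above background on any array with either probe. A_51_P144813 read 0.295%, 0.319% and 0.193% in knockout arrays and 0.305%, 0.468% and 0.168% in wild-type arrays. A_55_P2008437 read 0.303%, 0.216% and 0.296% in knockout arrays and 0.229%, 0.147% and 0.146% in wild-type arrays. The lowest signal of a probe well above background was 0.969% to 1.44% in knockout arrays and 0.716% to 1.15% in wild-type arrays, above all of these readings. Only such a bound can be given in both groups, so no fold is stated, and neither probe was assigned to a single protein of the locus here.

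Cdkn2b was well above background on all 6 arrays, but the software had marked its spots. Probe A_52_P498241, marked on all 6 arrays, gave 711%, 678% and 677% in knockout arrays and 601%, 435% and 455% in wild-type arrays. The 3 knockout values stood close together and above every wild-type value. With the marked spots kept, the log2 change was 0.48 ± 0.16 (SE, n = 3 and 3; 95% interval 0.12 to 0.85), with adjusted p = 0.378 from limma. The unadjusted p was 0.0163. The value ran from 0.40 to 0.63 over 16 further alternatives, with an adjusted p from 0.273 to 0.782. Within slide columns 1 and 2 the difference was 0.24 and 0.64.

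The second Cdkn2b probe, A_55_P1988183, was marked on 5 of the 6 arrays and showed no such separation. It gave 273%, 385% and 319% in knockout arrays and 336%, 264% and 349% in wild-type arrays. Its values interleaved, and the log2 change with marked spots kept was 0.04 ± 0.18 (SE, n = 3 and 3; 95% interval -0.38 to 0.46), adjusted p = 0.965 from limma. It was 0.16 without knockout array 1 and -0.09 without knockout array 2 or wild-type array 2. The changes of the Cdkn2b probes differed by 0.45, with an exact permutation p = 0.2 (two-sided, smallest possible 0.1). What the marks did to the brightness of these spots was not tested.

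**Figure D2:**
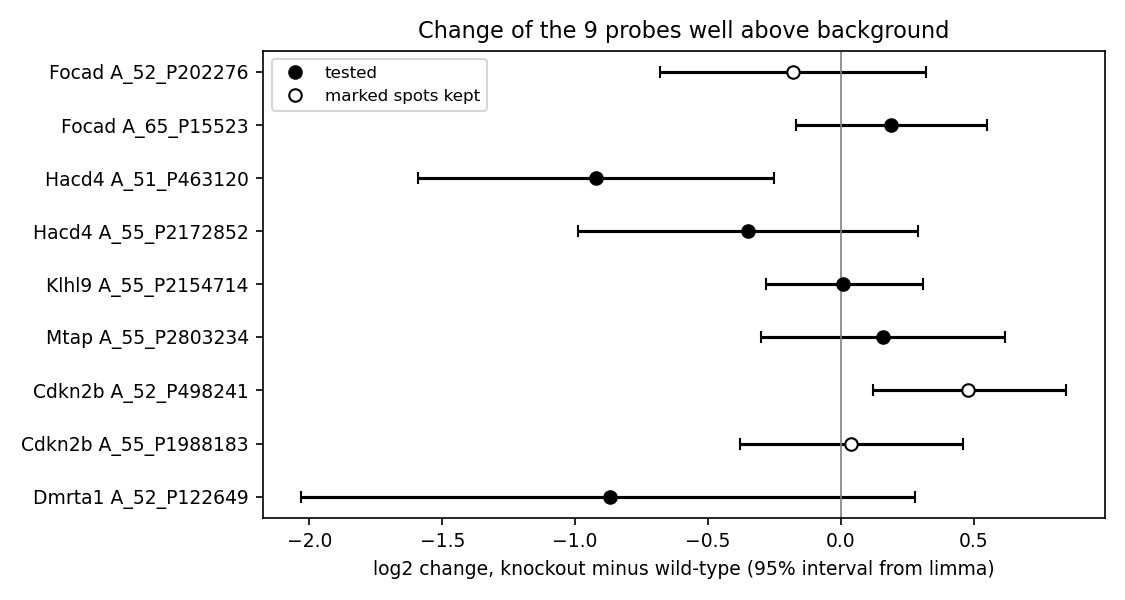
Log2 change, knockout minus wild-type, of the 9 probes well above background, with the 95% interval from limma. Filled circles are the 6 tested probes and open circles the 3 probes measured only with marked spots kept. The intervals of Hacd4 A_51_P463120 (-1.59 to -0.25) and Cdkn2b A_52_P498241 (0.12 to 0.85) lie to one side of 0, before adjustment for the number of probes.

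Mtap, the first protein-coding gene beyond Mir31 on the Cdkn2a side, encodes methylthioadenosine phosphorylase, which returns the by-product of polyamine synthesis to the methionine pool. Its probe gave 12.1%, 12.7% and 8.10% in knockout arrays and 8.93%, 9.68% and 10.4% in wild-type arrays. Knockout arrays 1 and 2 were the highest of all and knockout array 3 the lowest, so the groups overlapped. The log2 change was 0.16 ± 0.19 (SE, n = 3 and 3; 95% interval -0.30 to 0.62), with adjusted p = 0.823 from limma. Without knockout array 3 it was 0.37 with adjusted p = 0.379, and without knockout array 2 it was 0.04 with adjusted p = 0.980. At the gene next to Mir31, a change of 0 and changes of either sign thus lay within the interval.

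Klhl9, on the other side of Mir31 with 22 protein-coding genes in between, encodes a substrate adaptor of the Cul3 ubiquitin ligase that acts in mitosis. It gave 342%, 342% and 329% in knockout arrays and 351%, 357% and 298% in wild-type arrays. The knockout values lay inside the wild-type range, and its log2 change of 0.01 ± 0.12 (SE, n = 3 and 3) had the narrowest interval of their 6 tested probes, from -0.28 to 0.31, with adjusted p = 0.981 from limma.

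Focad encodes focadhesin, named for its place at focal adhesions and, from work on human cells, a partner of the SKI complex in messenger RNA decay. Probe A_65_P15523, designed on a predicted transcript, gave 8.76%, 6.23% and 7.38% in knockout arrays and 6.28%, 6.29% and 6.84% in wild-type arrays. The wild-type arrays lay within the knockout range, and the log2 change was 0.19 ± 0.15 (SE, n = 3 and 3; 95% interval -0.17 to 0.55), adjusted p = 0.707 from limma. Normexp background correction turned it to -0.07. The other probe, A_52_P202276, gave 61.4%, 44.6% and 35.0% in knockout arrays and 50.4%, 48.5% and 56.5% in wild-type arrays, with 4 of the 6 spots marked. Its groups also overlapped, and the log2 change with marked spots kept was -0.18 ± 0.21 (SE, n = 3 and 3; 95% interval -0.68 to 0.32), adjusted p = 0.830 from limma. The Focad probes differed in their change by -0.37 (exact permutation p = 0.1, two-sided, the smallest possible), and their signs were opposite.

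Dmrta1 and Elavl2 are the outermost genes on the Cdkn2a side. Dmrta1, a transcription factor with a DM domain, was well above background on 1 of 3 knockout arrays and on 3 of 3 wild-type arrays. It read 1.0%, 2.22% and 0.724% in knockout arrays and 2.72%, 2.97% and 1.22% in wild-type arrays. Knockout array 2 exceeded wild-type array 3, so the groups overlapped. The log2 change was -0.87 ± 0.49 (SE, n = 3 and 3) with the widest interval of the 6, -2.03 to 0.28, and adjusted p = 0.585 from limma. It was -0.25 with normexp correction, which adds an offset that compresses dim probes, and between -1.33 and -0.52 when 1 array was left out. Signals this close to background limit what can be said of Dmrta1.

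Elavl2 encodes a neuronal RNA-binding protein of the ELAV family, and its probes were not well above background on any array. A_52_P664899 read 0.324%, 0.221% and 0.808% in knockout arrays and 0.553%, 0.690% and 0.470% in wild-type arrays. A_55_P2020438 read 0.517%, 0.225% and 0.442% in knockout arrays and 0.235%, 0.179% and 0.419% in wild-type arrays. Both groups overlapped at both probes, and no fold is given. Its relative Elavl1, expressed in many tissues, stood at 0.22 ± 0.13 on the log2 scale (SE, n = 3 and 3, adjusted p = 0.594 from limma).

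The 8 genes stand in a stretch of 41 protein-coding genes, from Focad, 35 genes before Mir31, to Elavl2, 6 genes after it. Of these, 17 have interferon symbols; 15 had a probe and 12 were above background on at least 1 array, while Ifnb1, Ifna4 and Ifne were above it on 0 arrays. With 1 probe for each gene, 23 genes of the stretch were tested by limma, 5 of them the neighbour genes above, and 0 passed, against 0.208% of all features. At an unadjusted p under 0.05 stood 6 of the 23, against 10.7% of all features, and 7 of the 23 did not overlap between the groups, against 18.0%. The median log2 change was 0.01 for those 5 genes and -0.19 for the other 18, beside -0.06 for all features. The 25 tested genes before the stretch had a median of -0.05 and the 25 after it -0.02.

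Among the nearest tested genes to Mir31, 2 interferon genes were higher on every knockout array, and they were picked here after their values were seen. Ifna1 gave 4.51%, 3.84% and 4.78% in knockout arrays and 3.05%, 2.56% and 2.28% in wild-type arrays. Its log2 change was 0.74 ± 0.16 (SE, n = 3 and 3) with adjusted p = 0.202 from limma. Ifna5 gave 4.11%, 4.57% and 5.50% in knockout arrays and 3.64%, 3.00% and 3.05% in wild-type arrays, a log2 change of 0.54 ± 0.16 with adjusted p = 0.312 from limma. The interferon alpha genes are close copies of one another, so a probe may read several of them, and their levels are uncertain. Between Ifna5 and Klhl9, Ifna7 was lower on every knockout array, at -0.38 ± 0.16 (adjusted p = 0.454 from limma). Ifna11 had -0.55 ± 0.20 (adjusted p = 0.413 from limma), and its groups overlapped. Beyond Klhl9, Ifna14 and Ifnab were also higher on every knockout array, at 0.24 ± 0.12 and 0.34 ± 0.14 (adjusted p = 0.533 and 0.467 from limma). Ifna9, also beyond Klhl9, had -0.48 ± 0.18 (adjusted p = 0.404 from limma), and its groups overlapped. Of the 12 interferon genes tested, 4 were positive and 8 negative, with a median of -0.18. The groups did not overlap at 5 of the 12, in either direction, beside 18.0% of all features.

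The one gene of the stretch and its flanks that passed was Acer2, 38 genes before Mir31 and beyond Focad, which encodes an alkaline ceramidase of the Golgi. Probe A_51_P244408 gave 4.13%, 3.96% and 3.29% in knockout arrays and 10.6%, 9.20% and 9.66% in wild-type arrays. The groups were well apart, at -1.38 ± 0.14 on the log2 scale (SE, n = 3 and 3), with adjusted p = 0.0157 from limma. The call was lost in 8 of 19 alternatives, among them 5 of the 6 that left out 1 array. Over all 19 the adjusted p from limma ran from 0.00697 to 0.117. The log2 change ran from -1.45, with both Acer2 probes averaged, to -1.0. The other Acer2 probe, A_55_P2367463, read 0.391%, 0.813% and 0.755% in knockout arrays and 1.61%, 2.21% and 1.60% in wild-type arrays. Its knockout readings lay below the lowest signal well above background on those arrays. It met the filter only through the wild-type arrays, so no fold is given. Hacd4, at 34 genes before Mir31, is the neighbour gene nearest to Acer2 but for Focad, whose probes had 0.19 and -0.18.

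**Figure D3:**
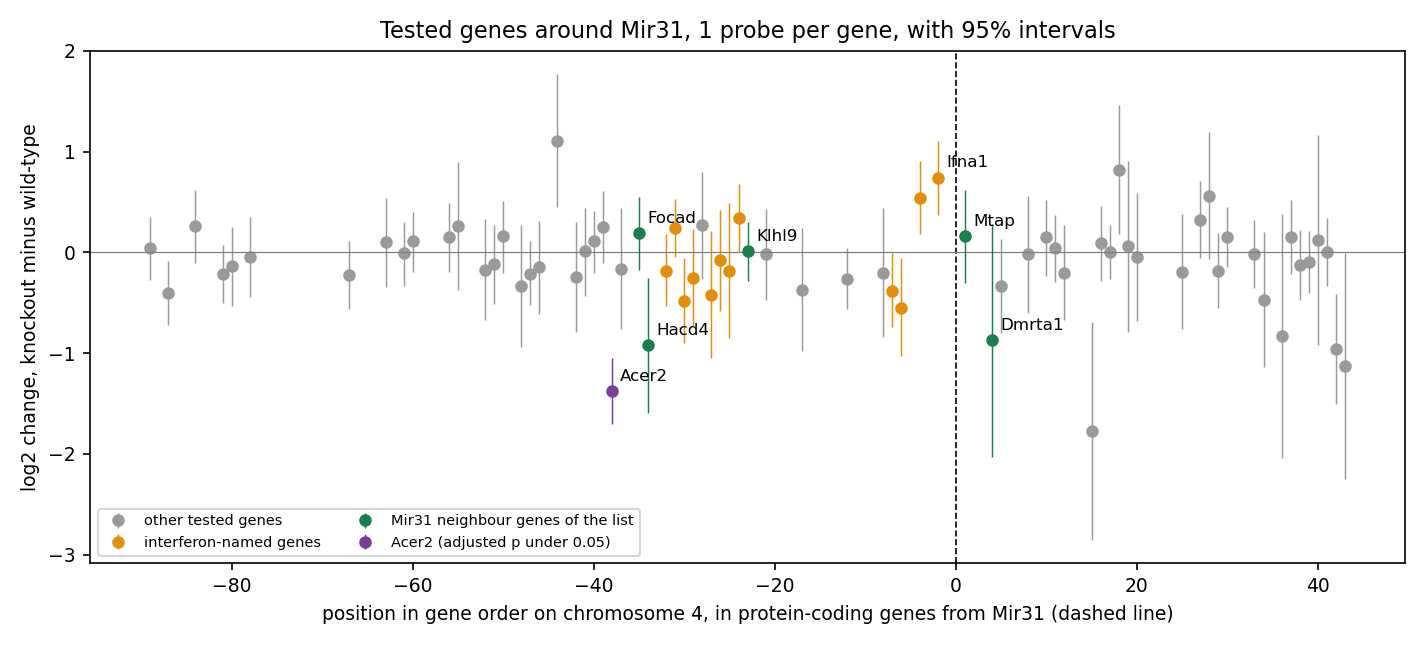
Log2 change, knockout minus wild-type, of the tested genes around Mir31, 1 probe for each gene, against their place in gene order; bars are 95% intervals from limma. Green marks the tested neighbour genes, orange the interferon-named genes and purple Acer2, which at -1.38 is the only point with an adjusted p under 0.05. Mtap, next to the dashed line of Mir31, stands at 0.16.

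Partners of the neighbour genes were listed by their known roles, with 1 probe for each gene, and 0 members of any of the 9 lists passed limma's test, against 0.208% of all features. Over all features, 10.7% had an unadjusted p under 0.05 and 18.0% did not overlap between knockout and wild-type. In methionine salvage and polyamine supply, the pathway of Mtap, 10 of 13 genes were tested, 4 positive and 6 negative, with a median log2 change of -0.04. Mri1, which acts after Mtap in the salvage pathway, had -0.52 ± 0.13 (SE, n = 3 and 3), did not overlap between the groups and had an adjusted p of 0.250 from limma. It was the 1 gene of 10 at an unadjusted p under 0.05, a share close to the 10.7% of all features. Enoph1, a later enzyme of the same pathway, had 0.24 ± 0.14 with adjusted p = 0.598.

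Of the Cdk and Rb partners of the Ink4 proteins, 10 of 13 were tested, 5 in each direction, with a median of 0.01, 2 without overlap and 0 at an unadjusted p under 0.05. Cdk6, a kinase that the Ink4 proteins inhibit, had 0.33 ± 0.15 (adjusted p = 0.492, no overlap), and E2f2, a target of Rb, had 0.39 ± 0.17 (adjusted p = 0.469). Of the Arf, Mdm2 and p53 partners, 8 of 9 were tested, with a median of 0.03, 3 without overlap (18.0% of all features) and 0 at an unadjusted p under 0.05. Trp53 had 0.28 ± 0.12 (adjusted p = 0.467, no overlap) and Npm1, which binds p19Arf in the nucleolus, -0.41 ± 0.17 (adjusted p = 0.490, 2 arrays in each group). Of the regulators of the locus, Polycomb and Ets genes among them, 8 of 13 were tested with a median of -0.04, 0 without overlap and 0 at an unadjusted p under 0.05, and Ets1 had 0.47 ± 0.24 (adjusted p = 0.549).

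Of the genes of very long chain fatty acid elongation, the pathway of Hacd4, 8 of 12 were tested, 5 positive and 3 negative, with a median of 0.01, 2 without overlap and 0 at an unadjusted p under 0.05. The smallest p of this list was that of the elongase Elovl5, at 0.18 ± 0.16 (adjusted p = 0.736 from limma), whose groups overlapped. Hacd1, a relative of Hacd4, had -0.13 ± 0.14 (adjusted p = 0.776, 2 knockout arrays) and Elovl1, another elongase, -0.11 ± 0.11 (adjusted p = 0.781). Of the Cul3 partners of Klhl9, 2 of 6 were tested, Klhl22 at -0.07 ± 0.12 and Klhl13 at 0.06 ± 0.20, and 0 had an unadjusted p under 0.05. Of the SKI complex and exosome genes set beside Focad, 12 of 14 were tested, 6 in each direction, with a median of 0.01, 3 without overlap (18.0% of all features) and 0 at an unadjusted p under 0.05. Hbs1l had -0.19 ± 0.11 (adjusted p = 0.604). Of the Dmrt family, 3 of 6 were tested with a median of -0.21, which was 0.21 without the filter on dim probes. Dmrta2 had -0.80 ± 0.19 with adjusted p = 0.250 and no overlap, and it was the 1 of the 3 at an unadjusted p under 0.05, beside 10.7% of all features. The 3 relatives of Elavl2 were all tested and positive, with a median of 0.07, and 0 had an unadjusted p under 0.05.

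Over the 6 arrays, the genes whose pattern was most like that of a neighbour gene were sought among 12643 genes. For Mtap these were Adam8 (Pearson r = 0.993), Wfikkn1 (0.992) and Neil1 (0.989). For Klhl9 they were Colq and Lzts3 (both 0.995) and Ptcd1 (0.989). For Hacd4, measured by the probe with the higher mean, A_51_P463120, they were 1500002C15Rik (0.998), Pafah1b3 and Zbtb2 (both 0.995). These are descriptions over 6 arrays of the same slide, knockout and wild-type together. They were picked as the highest of many and carry no test.

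**Figure D4:**
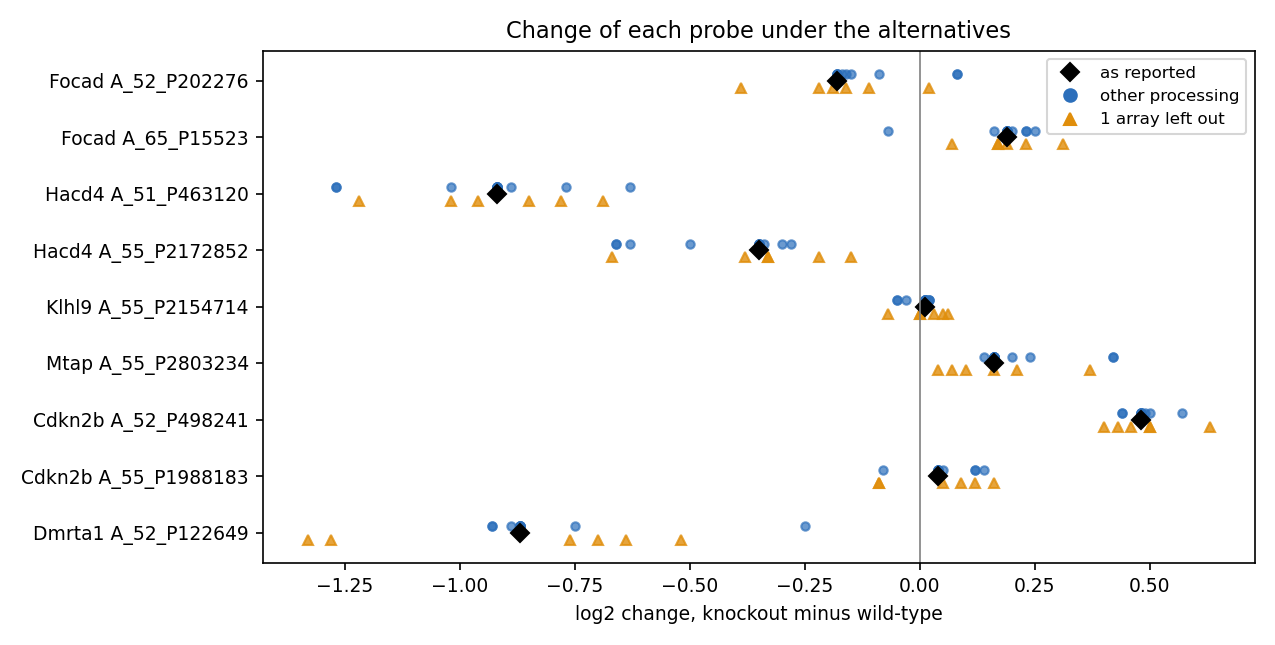
Log2 change, knockout minus wild-type, of the 9 probes well above background: as reported (diamonds), with another way of processing (circles) and with 1 array left out (triangles). Hacd4 A_51_P463120 (-1.27 to -0.63, the latter with both Hacd4 probes averaged) and Cdkn2b A_52_P498241 (0.40 to 0.63) kept their sign throughout, whereas Klhl9 (-0.07 to 0.06) crossed 0.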

How the data were processed

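Per the file headers, the authors' scanner files were made with Agilent Feature Extraction 11.5.1.1 (the submitters' processing notes name an older version) and hold a background-subtracted processed intensity for each of 62976 spots. In the authors' deposited series table, 99.7% of entries equalled the averaged scanner intensity to within 0.01 on the log2 scale. Its column medians were 259, 228 and 241 in knockout and 231, 234 and 247 in wild-type arrays, so its scale and direction are known and no centring was found. From the deposited intensity, log2 minus each array's 75th percentile was computed, after 3671 control spots and spots marked as non-uniform, outlier or by hand were left out; 0 spots were saturated. Spots of a probe were averaged. A probe was tested when well above background on at least 3 arrays, with at least 2 unmarked arrays in each group. Knockout and wild-type were compared by limma 3.58.1 (lmFit, eBayes, two-sided, no covariate) in R 4.3.3 with statmod 1.5.0 and version 1.17.8 of the data.table package, and Benjamini-Hochberg adjustment ran over all 33231 probes with a threshold of 0.05. The script was tested on simulated data. Probe differences used an exact permutation test.

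Symbols came from matching RefSeq accessions to an NCBI RefSeq table of GRCm38.p6, which gave a symbol to 33767 probes. The array design names mm9, so that table served for names and gene order, and the coordinates printed belong to the RefSeq sequences on GRCm38.p6. All probes of the 8 genes are named. Others are the flanking genes that passed, Acer2, up to 3 members of each partner list by smallest p, and the 3 genes most like Mtap, Klhl9 and Hacd4. The interferon genes with values were picked after their values were seen. The members and lists were chosen with earlier results of these data known. Alternatives were normexp (offset 50, on the median spot signal, since no mean signal column is given), quantile normalization, marked spots kept, other filters on dim probes, other probe rules, variance models, array weights, slide column or title number as a block, the series table, and each array left out. The number of arrays limits the precision. The p-values from limma set each difference against the spread between the arrays of these mice. That spread joins differences between mice with those of handling and array. Some markers of enteric neurons and glia are not reported here.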

Additional observations from a re-analysis of the deposited data

Results flagged for a closer look

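Of the 13 probes of the neighbour genes, 3 carried a clear signal that the comparison did not use, because their spots were marked as outliers on most arrays. Cdkn2b probe A_52_P498241 was well above background on 6 of 6 arrays and marked on 6. Cdkn2b probe A_55_P1988183 was well above background on 6 arrays and marked on 5, and Focad probe A_52_P202276 was well above background on 6 arrays and marked on 4. With the marks set aside their log2 changes, knockout minus wild-type, were 0.48, 0.04 and -0.18. Whether the marks reflect the spots or their brightness was not tested.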

How the results depend on the processing

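In all 19 alternatives, 0 of the tested probes of the neighbour genes passed. The number of probes called over the whole array depended on the processing: 69 as reported, 125 with normexp, 44 without the filter on dim probes, 33 with detection on all 6 arrays, 128 with a trended and robust variance, 130 with array weights, 195 with slide column as a block, 151 with replicates 1 and 2 of each group only, and 5 to 104 with 1 array left out (5 without knockout replicate 2, 20 without knockout replicate 1, 24 without wild-type replicate 1, 31 without wild-type replicate 2, 104 without knockout replicate 3). Of the tested probes, the 2 of Hacd4 and those of Mtap and Dmrta1 kept their sign throughout. The Focad probe A_65_P15523 turned to -0.07 with normexp. Klhl9, at 0.01 as reported, was -0.03 with array weights, -0.05 with slide column as a block and with replicates 1 and 2 only, and -0.07 to 0.06 with 1 array left out. With marked spots kept, the Cdkn2b probe A_55_P1988183 was -0.08 with normexp and -0.09 to 0.16 with 1 array left out. The Focad probe A_52_P202276 was 0.08 with slide column as a block and with replicates 1 and 2 only, and -0.39 to 0.02 with 1 array left out. Slide columns 3 and 4 held 1 array each. The change with slide column as a block therefore came from replicates 1 and 2 alone, so these 2 settings are not separate evidence. The settings that combine kept spots with another choice, and those run for Acer2, were chosen after seeing the data. The causes were not tested, and the adjusted p of every neighbour probe was above the threshold in each setting. Of 153 medians of the 9 partner lists over the alternatives, 137 moved by less than the spread between arrays. The median of all probes ran from -0.10 to -0.01 over the settings. No paired analysis was possible because the labels give no replicate numbers that tie a knockout mouse to a wild-type mouse. Slide column and title number (77 called) were blocks, not pairs, and the labels do not say what the title number means. The signal over background limits Dmrta1, Cdkn2a and Elavl2.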
